A study of Mus musculus with 6 samples.

Results

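The genes described here are 9 genes typical of megakaryocytes and platelets: the chemokines Pf4 and Ppbp, the integrin subunits Itga2b and Itgb3, the von Willebrand factor receptor subunits Gp1bb and Gp9 with their ligand Vwf, and the receptors Gp6 and Treml1. Every probe set annotated to exactly 1 of these symbols was taken, which gave 11 probe sets of the 45037 tested, with 2 each for Gp1bb and Itgb3. They were measured in primary mouse bone marrow cells positive for Ter119 and CD71 and large by forward scatter, so the sort selected erythroblasts and not megakaryocytes. The wild-type (WT) group held 3 arrays, titled 497, 504 and 550, and the knockout (KO) group, which lacks miR-144/451, held 3 arrays, titled 493, 548 and 551. Strain, age and sex are not given in the labels, nor is whether the deletion was limited to a cell type. Per the series' design, RNA came from 3 knockout and 3 wild-type mice, so each array was read as 1 mouse.

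The knockout removes a pair of microRNAs made from neighbouring hairpins on chromosome 11. Their levels were not analysed here, so the genotypes rest on the labels. The mature sequences are shown because they are what the knockout cells lack. They are RefSeq's, 5′ to 3′, with the seed (bases 2 to 8) in capitals, and the 3 strands share no seed.
mmu-miR-144-5p (GRCm38.p6, chr11:78073010-78073032, plus strand): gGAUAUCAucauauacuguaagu
mmu-miR-144-3p (GRCm38.p6, chr11:78073047-78073066, plus strand): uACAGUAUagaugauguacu
mmu-miR-451a (GRCm38.p6, chr11:78073186-78073207, plus strand): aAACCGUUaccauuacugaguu

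Megakaryocytes and red cells descend from a shared progenitor, and both lineages need the transcription factor GATA1. Megakaryocytes shed platelets, which stick to von Willebrand factor through the GPIb-IX complex, bind collagen through GPVI, bind fibrinogen through integrin alpha IIb beta 3 and release chemokines from alpha granules. In bone marrow, platelets and fragments of megakaryocytes can adhere to other cells, and early erythroid progenitors can carry some of these transcripts. In bulk samples such as these, fewer cells of a type and less RNA per cell cannot be told apart.

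Before the single genes, the arrays themselves are described. The defining erythroid genes were bright on every array: Tfrc, which encodes CD71, had a mean log2 intensity of 12.98 ± 0.02 in WT, against 12.94 ± 0.01 in KO (SD, n = 3), the band 3 gene Slc4a1 had 13.11 ± 0.01 and 13.04 ± 0.03, and the erythroid transcription factor gene Klf1 had 12.55 ± 0.14 and 12.45 ± 0.05. Some neutrophil genes were as bright. S100a9, named after its values were seen, had 13.45 ± 0.01 in WT, against 13.38 ± 0.02 in KO (SD, n = 3). Brightness alone therefore does not give the share of erythroblasts in the samples. Array medians were 5.73 to 5.78 in WT, against 5.62 to 5.68 in KO. Centring the arrays on those medians raised every KO minus WT difference by 0.11. The actin 3′ minus 5′ signal, an indicator of RNA length, was 1.65 to 1.67 in WT, against 1.82 to 1.86 in KO. The same signal for Gapdh overlapped between the genotypes. It was 1.09, 1.03 and 1.04 in WT 497, 504 and 550, against 1.04 and 1.05 in KO 493 and 548. KO 551 lay below all WT arrays for Gapdh. The 2 controls thus differed in whether they separated the genotypes, and their part in the results below was not tested. KO 548 stood apart from the other KO arrays for the platelet genes: with 1 probe set per gene it was above both of them for 6 of 9 genes, while this held for 31.0% of all probe sets. KO 493 was below both other KO arrays for 7 of the 9, against 35.1% of all probe sets. Each result is therefore also given without KO 548 where that changes its direction.

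The comparison of the genotypes asked whether erythroblasts without miR-144/451 carry more or less of the platelet transcripts. Limma called 0 of the 11 probe sets at an adjusted p under 0.05, beside 0.355% over the whole array, with 0.184% higher and 0.171% lower. With arrays centred on their medians the calls over all probe sets were 320 higher and 91 lower instead of 83 and 77, and still 0 of the 11 were called. An unadjusted p under 0.05 was reached by 0 of the 11, against 19.8% of all probe sets (7.60% higher and 12.2% lower), and limma with a robust prior that follows intensity (the trend fit) called 0, against 3.54%. The 3 KO and 3 WT values overlapped in all 11, whereas they were separate in 26.0% of all probe sets. Differences (log2, KO minus WT) ran from -0.28 to 0.24, with 6 above 0, 5 below 0 and a median of 0.04, beside a median of -0.04 over all probe sets. As folds, KO over WT ran from 0.824 to 1.18. The 95% intervals of limma all held 0, and their outermost bounds were -0.66 and 0.76. Thus, in this fit, a rise of more than 1.70-fold or a fall of more than 1.58-fold lay outside the interval of every probe set. Smaller changes in either direction lay within some of the intervals. These bounds move with the scaling. With arrays centred on their medians, Gp1bb probe set 1422977_at, which set the upper bound, was at 0.28 ± 0.26 (SE) instead of 0.17 ± 0.25.

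**Figure D1:**
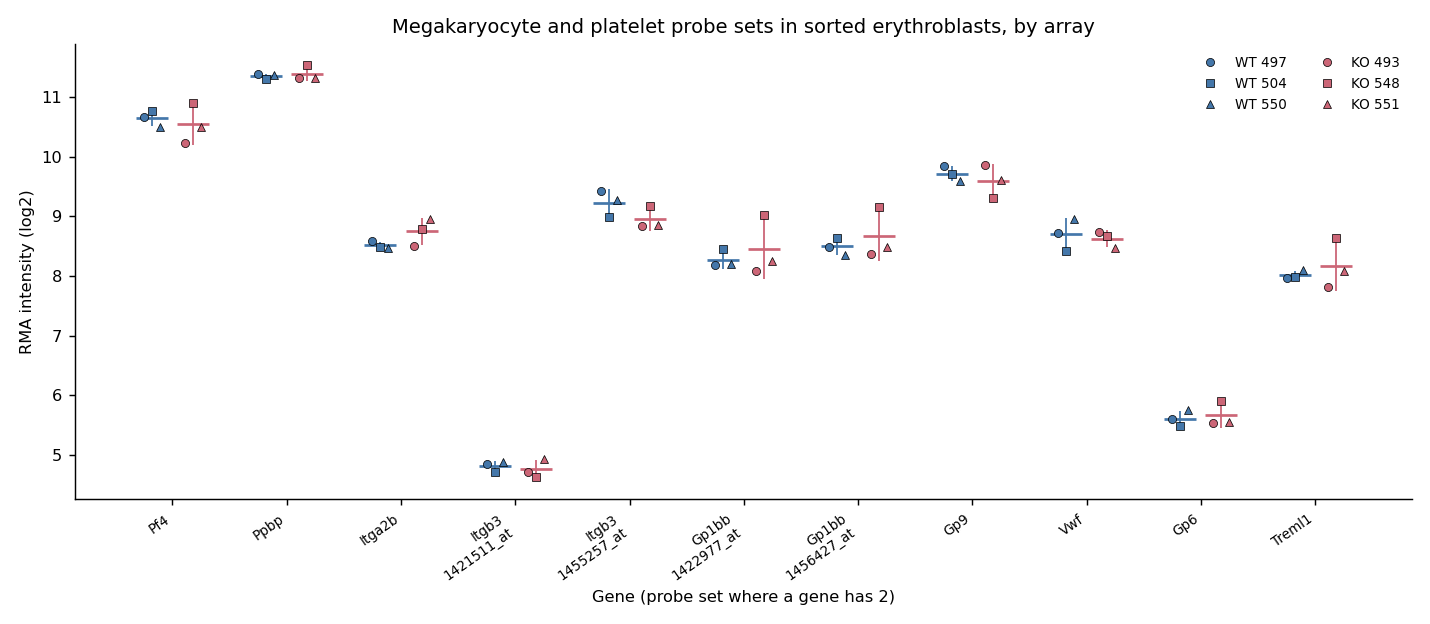
Log2 RMA intensity (vertical axis) of the 11 probe sets in the 6 arrays; points are arrays, horizontal lines are group means and vertical lines are SDs (n = 3 per group). The KO and WT points overlap for every probe set, and KO 548 is the highest array for 6 of them.

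Pf4 and Ppbp, which encode the alpha-granule chemokines CXCL4 and CXCL7, are neighbours on chromosome 5 with no other coding gene between them in the RefSeq order. The log2 intensity of Pf4 was 10.66, 10.76 and 10.50 in WT 497, 504 and 550, against 10.22, 10.90 and 10.50 in KO 493, 548 and 551. The KO arrays thus held both the lowest and the highest value, and the WT values lay between them. The difference was -0.10 ± 0.19 (SE; 95% interval -0.54 to 0.34, limma adjusted p = 0.805). It was 0.01 with arrays centred on their medians and -0.28 without KO 548.

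Ppbp was the steadiest of the 9 genes, at 11.38, 11.30 and 11.36 in WT, against 11.31, 11.54 and 11.32 in KO. The whole range over the 6 arrays was 0.24, and KO 548 was again the highest. The difference was 0.04 ± 0.11 (SE; interval -0.22 to 0.30, limma adjusted p = 0.86), and -0.03 without KO 548. Pf4 and Ppbp were above the 75th percentile of all probe sets on 6 of 6 arrays, which describes the brightness of the signals and not the number of transcripts.

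Itga2b and Itgb3 encode the alpha IIb (CD41) and beta 3 (CD61) chains of the fibrinogen receptor. Itga2b is also transcribed in early haematopoietic progenitors, and the beta 3 chain pairs with the alpha V chain in other cells. Both genes lie on chromosome 11, which carries the deleted locus, with 433 measured genes between the locus and Itga2b and 475 between it and Itgb3. Itga2b was at 8.58, 8.49 and 8.47 in WT, against 8.51, 8.79 and 8.95 in KO. KO 548 and KO 551 were above all WT arrays and KO 493 lay among them. The difference of 0.24 ± 0.14 (SE; interval -0.09 to 0.56) was the highest of the 11, and limma did not call it (adjusted p = 0.381).

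The probe sets of Itgb3 differed in brightness. The brighter one, 1455257_at, was at 9.43, 8.99 and 9.27 in WT, against 8.83, 9.17 and 8.85 in KO. KO 493 and KO 551 lay below all WT arrays and KO 548 among them. The difference of -0.28 ± 0.16 (SE; interval -0.66 to 0.10, limma adjusted p = 0.373) was the lowest of the 11, and it was -0.39 without KO 548. The dimmer one, 1421511_at, lay between 4.64 and 4.94 and below the array median on all 6 arrays, with a difference of -0.05 ± 0.12 that was 0.06 with arrays centred on their medians. The alpha and beta chains therefore pointed in opposite directions, each within the spread of the arrays, and the difference between the chains was not tested.

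Gp1bb and Gp9 encode GPIb beta and GPIX, small leucine-rich subunits that platelets need to bring the GPIb-IX receptor to the surface. Gp1bb was high in KO 548 in both of its probe sets. Its probe set 1456427_at was at 8.49, 8.64 and 8.36 in WT, against 8.37, 9.15 and 8.49 in KO. The other, 1422977_at, was at 8.18, 8.45 and 8.20 in WT, against 8.08, 9.02 and 8.25 in KO. KO 548 stood above the other 5 arrays by 0.51 and 0.57 over the next highest, and the other KO arrays lay within or close to the WT range. The difference was 0.17 ± 0.22 for the first (SE; interval -0.34 to 0.69, limma adjusted p = 0.699) and 0.17 ± 0.25 for the second (interval -0.42 to 0.76, adjusted p = 0.743). Without KO 548 they were -0.07 and -0.11.

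A further probe set, 1452357_at, is annotated to both Gp1bb and its neighbour Septin5, which encodes a septin, and was left out of the 11 because it names more than 1 gene. It was at 8.33, 7.80 and 7.89 in WT, against 6.78, 7.33 and 7.40 in KO. All KO values lay below all WT values, which was so for 15.3% of all probe sets. The difference was -0.84 ± 0.22 (SE; interval -1.35 to -0.32), and limma did not call it (adjusted p = 0.129, unadjusted p = 0.00635). The difference itself lay outside the intervals of the probe sets that name Gp1bb alone, but its interval overlapped theirs. Whether the probe sets differ was not tested, and which gene's transcript 1452357_at reports cannot be told from the annotation.

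Gp9 ran against Gp1bb in KO 548. It was at 9.84, 9.71 and 9.59 in WT, against 9.86, 9.31 and 9.61 in KO, so KO 548 was the lowest of the 6 arrays and KO 493 the highest. The difference was -0.12 ± 0.16 (SE; interval -0.50 to 0.26, limma adjusted p = 0.724), and 0.02 without KO 548. The genes of this one receptor complex were thus not high together in KO 548.

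Vwf encodes von Willebrand factor, the adhesive ligand of the GPIb-IX complex, which megakaryocytes share with endothelial cells. It was at 8.72, 8.42 and 8.96 in WT, against 8.74, 8.67 and 8.47 in KO. The WT arrays held both extremes, and KO 548 was in the middle. The difference was -0.07 ± 0.16 (SE; interval -0.46 to 0.31, limma adjusted p = 0.839), and it was 0.04 with arrays centred on their medians. Of 10 endothelial markers, 6 were below the array median on all 6 arrays, and 1 was above it on all 6: Eng, named after its values were seen. The mean log2 intensity of that list was 5.17 to 5.23 in WT, against 4.96 to 5.16 in KO.

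Gp6 encodes GPVI, the collagen receptor that signals through the Fc receptor gamma chain, and Treml1 encodes TLT-1, a receptor stored in alpha granules. Gp6 was dim, at 5.60, 5.49 and 5.75 in WT, against 5.54, 5.91 and 5.55 in KO, and was above the array median in KO 548 alone. Its difference was 0.05 ± 0.14 (SE; interval -0.29 to 0.39, limma adjusted p = 0.869), and -0.07 without KO 548. Treml1 was at 7.96, 7.99 and 8.10 in WT, against 7.81, 8.63 and 8.08 in KO. KO 548 was 0.53 above the next highest array, and KO 493 was the lowest. The difference was 0.16 ± 0.21 (SE; interval -0.34 to 0.65, limma adjusted p = 0.721), and -0.07 without KO 548.

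**Figure D2:**
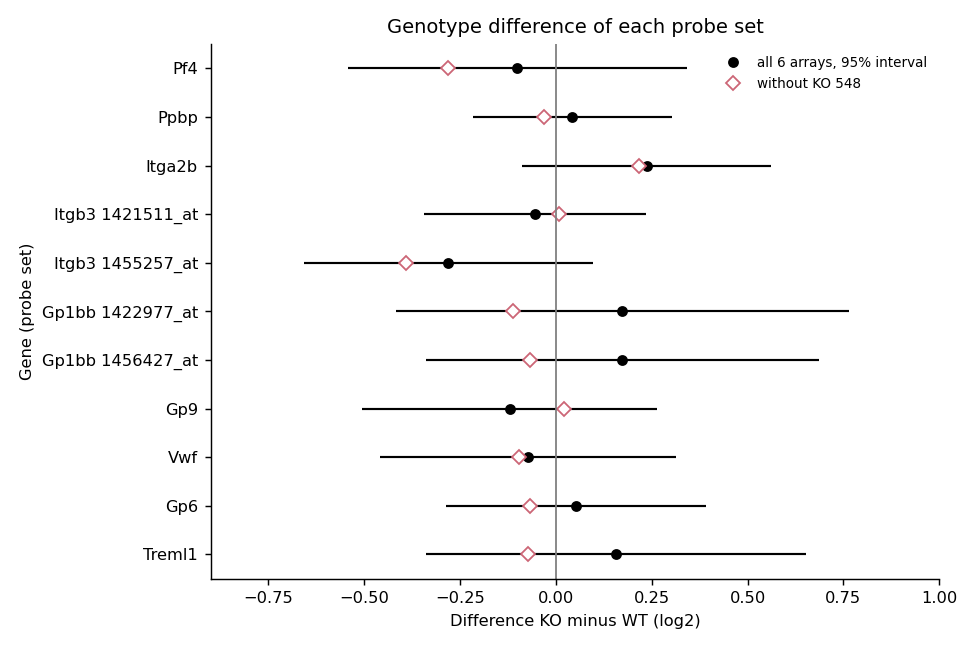
Difference KO minus WT (log2, horizontal axis) of each probe set with all 6 arrays (black, limma's 95% interval) and without KO 548 (open diamonds). All 11 intervals hold 0, and 7 of the differences change sign when KO 548 is left out.

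Across the 9 genes, with 1 probe set each, the mean log2 intensity was 8.96, 8.87 and 8.93 in WT 497, 504 and 550, against 8.80, 9.12 and 8.87 in KO 493, 548 and 551. KO 548 was the highest array and KO 493 the lowest, so both extremes were KO. The SD among KO arrays was larger than among WT arrays in 9 of the 11 probe sets, against 46.1% of all probe sets, and the median SD was 0.22 in KO and 0.13 in WT. Without KO 548 the differences of Gp1bb (both probe sets), Gp6, Gp9, Ppbp, Treml1 and the dimmer Itgb3 probe set changed sign, and the median over the 11 went from 0.04 to -0.07. The highest array was KO 548 for Pf4, Ppbp, Gp6, Treml1 and both probe sets of Gp1bb, KO 551 for Itga2b and the dimmer Itgb3 probe set, KO 493 for Gp9, WT 550 for Vwf and WT 497 for the brighter Itgb3 probe set.

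The genes whose pattern over the 6 arrays was most like the mean of the 9 (each centred on its own mean) were sought among 5603 probe sets with an SD of at least 0.3 and a mean log2 intensity of at least 5. The closest was a probe set of Gnaz, which encodes the G protein alpha z subunit found in platelets, with Pearson's r = 0.974 over 6 arrays and 0.896 over the 5 without KO 548. It was at 5.80, 5.66 and 5.63 in WT, against 5.31, 6.37 and 5.47 in KO, high in KO 548 and low in KO 493. The brighter probe set of Gnaz was at 8.04, 7.54 and 8.04 in WT, against 7.62, 8.02 and 7.44 in KO, where KO 548 was level with WT 497 and WT 550. The next were Arap3, a GTPase-activating protein (r = 0.966, 0.876 without KO 548), the phospholipid synthesis gene Chpt1 (0.927 and 0.788), Prok2, which encodes prokineticin 2 (0.921 and 0.808), and the lipoprotein receptor gene Lrp8 (0.914 and 0.853). Arap3 reached 8.98 in KO 548 against 6.27 to 7.76 in the other arrays. These values are a description, since the arrays share KO 548 as their extreme and the closest of so many probe sets over 6 points will always be close.

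Upstream sequence is shown for 4 genes that stand for the groups above: Pf4 for the chemokines, Itga2b for the integrin, and Gp1bb and Gp9 because they belong to 1 receptor and differed in KO 548. Each line holds the 250 bases before the RefSeq start site, 5′ to 3′ on the gene's strand, with GATAA (GATA factors) and GGAAG (ETS factors such as FLI1), or their reverse complements, in capitals. RefSeq promoters were matched for 7 of the 9 genes.
Pf4 (GRCm38.p6, chr5:90772185-90772434, plus strand): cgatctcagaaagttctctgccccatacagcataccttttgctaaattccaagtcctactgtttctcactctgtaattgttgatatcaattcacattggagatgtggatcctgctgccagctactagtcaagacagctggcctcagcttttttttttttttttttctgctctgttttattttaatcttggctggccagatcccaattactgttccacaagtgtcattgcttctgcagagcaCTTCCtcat
Itga2b (GRCm38.p6, chr11:102469884-102470133, minus strand): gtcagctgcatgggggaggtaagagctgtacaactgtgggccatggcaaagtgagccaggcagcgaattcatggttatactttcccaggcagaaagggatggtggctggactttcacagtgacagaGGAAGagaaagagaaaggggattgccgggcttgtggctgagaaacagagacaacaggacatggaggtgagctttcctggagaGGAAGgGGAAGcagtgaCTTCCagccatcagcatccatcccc
Gp1bb (GRCm38.p6, chr16:18622404-18622653, minus strand): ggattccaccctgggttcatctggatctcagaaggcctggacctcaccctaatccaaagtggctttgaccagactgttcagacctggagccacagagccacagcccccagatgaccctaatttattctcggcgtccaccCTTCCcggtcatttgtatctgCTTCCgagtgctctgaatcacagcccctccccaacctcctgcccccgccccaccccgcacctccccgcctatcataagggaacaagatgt
Gp9 (GRCm38.p6, chr6:87777820-87778069, plus strand): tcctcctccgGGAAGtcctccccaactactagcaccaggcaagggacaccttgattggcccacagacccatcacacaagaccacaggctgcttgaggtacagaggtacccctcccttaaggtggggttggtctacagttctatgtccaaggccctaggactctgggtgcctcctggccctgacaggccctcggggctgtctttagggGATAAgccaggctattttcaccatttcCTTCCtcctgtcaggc
GGAAG or its reverse complement was found in 6 of the 7 promoters, and in 64.1% of 32817 RefSeq promoters over the same 250 bases. GATAA or its reverse complement was found in 2 of the 7, Gp9 and Gp6, and in 22.6% of all. In Gp9 the GATAA began 43 bases and a GGAAG on the opposite strand 16 bases before the start site, while Itga2b held 4 GGAAG matches and no GATAA. These matches describe letters in a window and were not tested as sites.

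The transcription factors that drive these genes were read from the same arrays. Gata1, the factor both lineages share, named after its values were seen, was at 12.46, 12.39 and 12.48 in WT, against 12.48, 12.47 and 12.41 in KO, a difference of 0.01 ± 0.09 (SE). Fli1, the ETS factor that megakaryocytes need and that erythroid cells lose as they mature, was at 9.74, 9.32 and 9.19 in WT, against 8.55, 8.77 and 8.73 in KO. All KO arrays lay below all WT arrays for Fli1, in its dim second probe set as well, where KO was at 4.40 to 4.98 and WT at 5.14 to 5.52. Such a separation was found in 15.3% of all probe sets. The difference was -0.73 ± 0.16 (SE) for the brighter probe set, which limma did not call over all probe sets (adjusted p = 0.106) and the trend fit did (adjusted p = 0.036). Runx1, a transcription factor that megakaryocytes need to mature, was at 8.83, 8.48 and 8.96 in WT, against 9.30, 9.34 and 8.93 in KO, a difference of 0.43 ± 0.17 (adjusted p = 0.236). Its 6 probe sets gave differences from -0.21 to 0.43, so the array gives no single value for Runx1. Over 14 measured transcription factors of the list 0 were called, and the median difference was -0.08.

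A wider list of 87 other platelet genes, of which 78 were measured under their symbols, gave 0 genes called by limma, where 0.385% of all genes were called with 1 probe set each. The trend fit called 1, Fli1, against 4.42% of all genes. An unadjusted p under 0.05 was reached by 21 of the 78 (26.9%), against 21.0% of all genes. Of these, 16 were lower in KO (20.5% of the list, against 12.7% of all genes) and 5 higher (6.41%, against 8.34%). The KO and WT values were separate in 25 of the 78 (32.1%), against 28.8% of all genes, with 20 below (25.6%, against 16.2%) and 5 above (6.41%, against 12.5%). By direction the list thus held a larger share of genes lower in KO than all genes did. The 5 higher genes were too few to be read as a difference. WT 497 was the highest array for 34 of the 78 genes and KO 548 for 20. The part of single arrays in these counts was not tested. The median difference was -0.10, beside -0.04 over all genes. With arrays centred on their medians it was 0.01, beside 0.07 over all probe sets. Of the 78 genes 38 were then below 0, against 38.8% of all genes. Under that centring the medians by role were 0.03 for surface receptors, -0.09 for granule cargo and 0.08 for granule assembly and cytoskeleton. They were -0.20 for signalling and 0.03 for transcription factors. Only granule assembly and cytoskeleton lay above the 0.07 over all probe sets. With quantile and cyclic loess scaling the median of the 78 was -0.06 and -0.08, beside 0.02 and -0.01 over all probe sets. Some genes of the list are also expressed in myeloid or lymphoid cells, and markers of those cells lay lower in KO, as given below; their part in these differences was not tested.

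**Figure D3:**
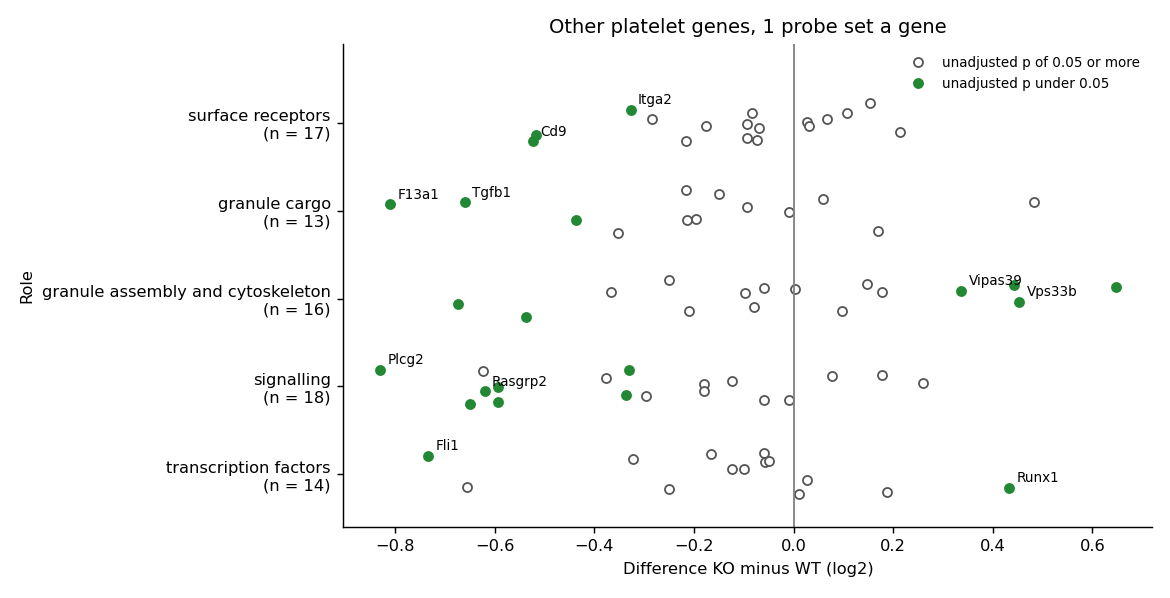
Difference KO minus WT (log2, horizontal axis) of the 78 other platelet genes by role, 1 point per gene; filled points have an unadjusted p under 0.05, and vertical scatter within a row has no meaning. Limma called none at an adjusted p under 0.05 (0 of 78, with 1 called by the trend fit). An unadjusted p under 0.05 was reached by 21 (26.9%), against 21.0% of all genes.

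Among 17 other surface receptors the median difference was -0.08, and 3 had an unadjusted p under 0.05, all lower. Over all genes the share was 21.0%, with 12.7% lower and 8.34% higher. With so few genes the count was not read as a difference. Cd9, a tetraspanin abundant on platelets and also on other marrow cells, was at 8.89, 8.26 and 8.40 in WT, against 7.87, 8.22 and 7.89 in KO (difference -0.52 ± 0.19, adjusted p = 0.21). Itga2, the alpha chain of the collagen-binding integrin, was at -0.33 ± 0.10 (adjusted p = 0.16), but its signals of 4.62 to 5.06 were below the array median on all 6 arrays. Gp5, the remaining measured subunit of the GPIb-IX-V complex, was at 0.15 ± 0.15 and was highest in KO 548, and Clec1b, the podoplanin receptor, was at -0.09 ± 0.11; both were named after their values were seen.

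Of 13 granule cargo genes, 3 had an unadjusted p under 0.05, all lower, and the median was -0.20. The share was 21.0% of all genes, with 12.7% lower, so this small count was not read as a difference. F13a1, the coagulation factor XIII A chain that monocytes also make, was at 10.97, 10.26 and 11.13 in WT, against 10.08, 9.69 and 10.16 in KO (difference -0.81 ± 0.25, adjusted p = 0.165). Tgfb1, transforming growth factor beta 1, was at a mean of 7.84 ± 0.24 in WT, against 7.18 ± 0.27 in KO (SD, n = 3; difference -0.66 ± 0.18, SE, limma adjusted p = 0.143). For both genes, named for the smallest unadjusted limma p of this role, all KO arrays lay below all WT arrays. This was so for 16.2% of all genes.

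Granule assembly and cytoskeleton genes went both ways, with 4 of 16 higher and 2 lower at an unadjusted p under 0.05 and a median of -0.03. Of all genes 8.34% were higher and 12.7% lower at that threshold. Vps33b and Vipas39 encode partners in a complex that alpha granules need for their formation. In both all KO arrays lay above all WT arrays, which was so for 12.5% of all genes. They are named because they had the 2 smallest unadjusted limma p of this role, so the separation adds no support. Vps33b was at 7.59, 7.72 and 7.55 in WT, against 8.11, 8.05 and 8.06 in KO (0.45 ± 0.10, adjusted p = 0.103), and Vipas39 at 9.60, 9.37 and 9.48 in WT, against 9.82, 9.81 and 9.83 in KO (0.34 ± 0.10, adjusted p = 0.165). Limma called neither, and with a pseudocount of 32 Vps33b was called (difference 0.40, adjusted p = 0.0296). Tubb1, the platelet beta tubulin, named after its values were seen, was at 12.19, 11.48 and 9.51 in WT, against 10.83, 10.95 and 10.77 in KO. Its WT arrays spread over 2.68 and its KO arrays over 0.18, so no difference could be read for it.

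Of 18 signalling genes, 7 had an unadjusted p under 0.05, all lower, and the median was -0.31. This compares with 21.0% of all genes, 12.7% lower. Plcg2, the phospholipase C gamma 2 that acts below GPVI and the B cell receptor, was at 9.29, 8.50 and 8.86 in WT, against 7.98, 8.21 and 7.97 in KO (-0.83 ± 0.21, adjusted p = 0.123). Rasgrp2, the exchange factor that activates RAP1 and through it the platelet integrin, was at 7.73, 7.24 and 7.36 in WT, against 6.97, 6.74 and 6.76 in KO (-0.62 ± 0.16, adjusted p = 0.125).

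The platelet genes were set beside markers of other blood cells on the same arrays, with 1 probe set per gene. The mean log2 intensity of the 9 platelet genes was 8.87 to 8.96 in WT, against 8.80 to 9.12 in KO. For 13 neutrophil markers it was 11.41 to 11.66 and 10.93 to 11.31, for 11 B lineage markers 8.75 to 9.39 and 8.29 to 8.64, and for 11 T and NK markers 6.41 to 7.04 and 5.98 to 6.31. It was 7.91 to 8.68 in WT, against 7.71 to 7.78 in KO for 9 markers of eosinophils, basophils and mast cells, 7.47 to 7.61 and 7.09 to 7.18 for 11 early progenitor genes, and 12.30 to 12.34 and 12.18 to 12.22 for 10 erythroid genes. In these 6 lists all KO arrays lay below all WT arrays, with 13 of 13, 10 of 11, 8 of 11, 8 of 9, 10 of 11 and 10 of 10 gene differences below 0, against 56.0% of all genes. The KO arrays also lay below the WT arrays for the endothelial list given above, narrowly, with 4 of 10 below 0. The 15 macrophage markers overlapped, at 8.66 to 9.05 in WT, against 8.49 to 8.71 in KO, with 13 of 15 below 0. The platelet genes, with 4 of 9 below 0, overlapped. With arrays centred on their medians, the KO arrays stayed below the WT arrays for the B lineage, the eosinophil, basophil and mast cell, and the early progenitor lists, and overlapped with them for the neutrophil, T and NK, endothelial and erythroid lists. Differences below 0 then were 11 of 13 for neutrophil, 11 of 15 for macrophage, 10 of 11 for B lineage, 8 of 11 for T and NK, 7 of 9 for eosinophil, basophil and mast cell, 10 of 11 for early progenitor, 4 of 10 for endothelial, 6 of 10 for erythroid and 2 of 9 for the platelet genes, against 38.8% of all genes. The difference in mean level then was -0.28 for neutrophil, -0.31 for T and NK and -0.02 for erythroid genes, and 0.12 for the 9 platelet genes. Under quantile and cyclic loess scaling the same difference was -0.38 and -0.39 for neutrophil and -0.34 and -0.37 for T and NK genes. For erythroid genes it was -0.12 and -0.14, for endothelial genes -0.03 and -0.05, and for the 9 platelet genes 0.05 and 0.03. Limma called 0 genes of any of these lists. An unadjusted p under 0.05 was reached by 4 of 13 neutrophil, 4 of 15 macrophage, 8 of 11 B lineage, 1 of 11 T and NK, 5 of 9 eosinophil, basophil and mast cell, 6 of 11 early progenitor, 2 of 10 endothelial and 1 of 10 erythroid genes, against 21.0% of all genes. The share was thus above that of all genes for the B lineage, eosinophil, basophil and mast cell, and early progenitor lists. For the other lists the counts lay too close to it, with so few genes, to be read as a difference. For these lists the trend fit called 3 of 11 early progenitor genes and 1 of 9 in the eosinophil, basophil and mast cell list. All were lower in KO, and the trend fit called 4.42% of all genes. KO 548, the highest array for the platelet genes, was the lowest of the 6 arrays for the B lineage, T and NK and early progenitor lists. WT 497 alone set the upper end for B lineage, at 9.39 against 8.75 and 8.89 in WT 504 and WT 550. It also did for T and NK (7.04 against 6.41 and 6.41) and for eosinophil, basophil and mast cell markers (8.68 against 7.91 and 8.25). No marker fell to the floor of the scale on any array. Whether the platelet genes differ from the other lists was not tested.

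**Figure D4:**
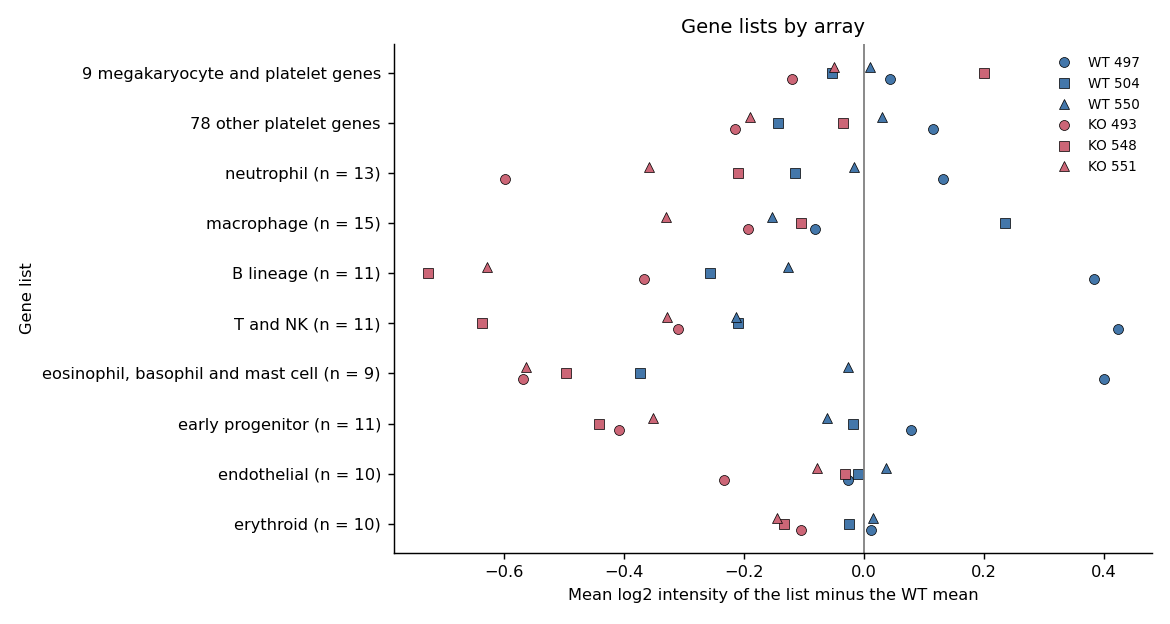
Mean log2 intensity of each gene list in each array, relative to the WT mean of that list (horizontal axis); points are arrays. The KO points lie left of the WT points for neutrophil, B lineage, T and NK, granulocyte and mast cell, early progenitor, endothelial and erythroid lists, while for the 9 platelet genes KO 548 lies farthest right and KO 493 farthest left; with arrays centred on their medians the neutrophil, T and NK, endothelial and erythroid lists overlap.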

How the data were processed

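RNA of 6 sorted erythroblast samples was hybridised to Affymetrix Mouse Genome 430 2.0 arrays. The deposited values are linear probe-set intensity values, made by the authors with RMA per the submitters' processing notes; software and background step are not given in the sources used here. The scaling within RMA can remove part of a shift of most transcripts. The array medians still differed, at 5.73 to 5.78 in WT, against 5.62 to 5.68 in KO. How much of such a shift was removed here is not known. The lowest value was 1, and 100% of values were powers of 2 with a 2-decimal exponent (tolerance 0.0051), so log2 was taken with no pseudocount.

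Of 45101 probe sets 64 controls were left out. GEO's platform annotation gave 1 gene for 34945 of the rest, several for 932 and none here for 9160. For genes outside the 9, and for counts per gene, the brightest probe set on average over the arrays stood for the gene (18193 genes). Of the listed genes 18 were not analysed here, and 1 symbol was updated through RefSeq (GRCm38.p6), which also gave chromosomes, gene order and sequences; all 9 genes matched by identifier.

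KO minus WT was fitted with limma 3.58.1 in R 4.3.3 (lmFit, eBayes, no covariate), Benjamini-Hochberg adjusted over 45037 probe sets, with a threshold of 0.05; the script was tested on simulated data. SEs and 95% intervals are limma's moderated ones. The number of arrays limits the precision. The members, lists and tests were chosen with earlier results of these data known. Named outside the 9 are called genes and, per role, the 2 with the smallest p, plus the 5 most alike, erythroid markers and the gene sharing a Gp1bb probe set; exceptions are said. Alternatives were a trend with robust prior, quantile, cyclic loess and median scaling, a level filter, a pseudocount, probe-set type, a block, probe-set means and leaving out each array. Scaling of the list levels was added after seeing the data.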

Additional observations from a re-analysis of the deposited data

How the results depend on the processing

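The count of 0 called platelet probe sets held under all alternatives run, and the smallest adjusted p of the 11 was 0.21 (limma, arrays centred on their medians). Their median difference lay between -0.068 and 0.083 with an array left out, the lowest without KO 548. These shifts were smaller than the SD of the median level between replicates, 0.22. That SD describes a level and not a difference, so it is only a loose measure for the shifts. KO 548 is also part of that SD, so the SD cannot judge the removal of KO 548. Signs were unstable for these small differences, as 6 of 94 values under other settings and 11 of 66 with an array left out had the opposite sign. The dimmer Itgb3 probe set was at 0.024 under quantile normalization, 0.015 under cyclic loess and 0.057 with arrays centred on their medians, and that centring put Vwf at 0.037 and Pf4 at 0.010. Blocking low against high title numbers put Gp6 at -0.012. With an array left out, differences ran from -0.11 to 0.36 and -0.067 to 0.32 for the Gp1bb probe sets (1422977_at, 1456427_at), -0.068 to 0.12 for Gp6, -0.25 to 0.022 for Gp9, -0.14 to 0.0083 for the dimmer Itgb3 probe set, -0.28 to 0.060 for Pf4, -0.032 to 0.083 for Ppbp, -0.072 to 0.34 for Treml1 and -0.21 to 0.057 for Vwf. Itga2b (0.14 to 0.36) and the brighter Itgb3 probe set (-0.40 to -0.18) kept their signs.

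Over all probe sets the count of calls was 160 and became 1593 with the intensity trend, 411 with arrays centred on their medians, 787 with the level filter, 1284 with the pseudocount of 32, 17 with the block and 8 to 23 with an array left out, the lowest without KO 548. Among the other platelet genes 1 was called with the trend (Fli1) and 1 with the pseudocount (Vps33b), against 0. Gp6 lay near the array medians and the dimmer Itgb3 probe set below them, the dimmest of the 11, and their signal over background was not analysed here. No paired analysis was possible because the numbers in the sample titles do not recur between genotypes.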
